A study of Mus musculus with 2 samples.

Results

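Domains with a strong border on both sides are stretches of chromosome whose 2 borders in the deposited boundary list both have high scores. A domain was taken as the interval between the midpoints of 2 neighbouring boundaries on the same autosome. The authors gave every boundary a score, which is larger where insulation is stronger. Domains were selected where both border scores were 1.0 or more and the length was over 120 kb and under 700 kb. The rule found 198 domains, 2.98% of the 6640 domains of that length range and part of 7391 domains on 19 autosomes. They are called closed domains here. The other 6442 domains of the range served as the comparison, and 2400 of these had exactly 1 border at 1.0 or more. Strong here means 1.0 or more, whereas the authors' strong class begins at 0.5. In the comparison the lower of the 2 border scores had an upper quartile of 0.534, so many of those domains also have 2 borders of that class.

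The boundaries come from in situ Hi-C, in which DNA ends held near each other in a fixed nucleus are joined and sequenced. The cells were immediate neuronal precursors of the olfactory epithelium, sorted by fluorescence (gate P4) from FVB/NTac pups of mixed sex that carried the Ngn1-GFP reporter of Neurog1. Both replicates, of 2200000 and 2100000 cells, belong to 1 untreated group and were combined before the 7841 boundaries were called, so the spread between replicates and the depth are both unknown. There was no comparison of conditions, and expression was not analysed here, so the labelled cell type was not checked against its markers.

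Mammalian chromosomes fold into domains within which sequences touch each other more often than they touch sequences outside. Cohesin extrudes loops of chromatin and is halted by the zinc finger protein CTCF, most often at a pair of sites whose motifs point toward each other from opposite ends of the loop. Enhancers and the promoters they act on commonly share a domain, and borders are often found near active promoters and CTCF sites.

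A pair of CTCF core matches pointing toward each other, each lying on the domain's own side of its border, was present in 8 of the 198 closed domains (4.04%, Wilson 95% interval 2.06 to 7.77%), against 101 of the 6442 other domains (1.57%, 1.29 to 1.90%). Of these 8 pairs, 4 are shown because they enclose the start of a single protein-coding gene of neuronal development or a receptor cluster. A match is an exact occurrence of the 12-base CTCF core consensus on either strand, within 10 kb of the boundary interval. Matches at both borders, in any orientation, were found in 44 of 198 closed domains (22.2%) and 564 of 6442 others (8.76%). Without the condition on the side of the border, matches pointing inward at both borders stood at 8.08% and 2.67%. Matches pointing outward at both stood at 8.59% and 3.06%, so the higher share was not particular to pairs pointing toward each other. The inward and outward pairs were not compared by a test. Letters are the plus strand of GRCm38.p6 (RefSeq) written 5′ to 3′, and capitals mark the core, which lies on the plus strand at left borders and on the minus strand at right borders.
Fezf1 domain, left border: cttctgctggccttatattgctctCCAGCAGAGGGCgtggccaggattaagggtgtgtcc
Fezf1 domain, right border: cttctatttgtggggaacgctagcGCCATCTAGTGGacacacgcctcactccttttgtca
Hey1 domain, left border: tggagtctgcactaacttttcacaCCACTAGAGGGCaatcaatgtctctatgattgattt
Hey1 domain, right border: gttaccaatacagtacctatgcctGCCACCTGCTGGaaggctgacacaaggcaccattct
Robo1 start domain, left border: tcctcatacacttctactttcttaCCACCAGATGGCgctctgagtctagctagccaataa
Robo1 start domain, right border: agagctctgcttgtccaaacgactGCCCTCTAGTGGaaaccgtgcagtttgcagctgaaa
Trace amine receptor domain, left border: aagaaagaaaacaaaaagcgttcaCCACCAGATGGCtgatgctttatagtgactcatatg
Trace amine receptor domain, right border: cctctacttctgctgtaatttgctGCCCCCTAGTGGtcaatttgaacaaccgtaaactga

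The Fezf1 sites lie at chr6:23167585-23167644, outside any annotated gene, and chr6:23457923-23457982, in an intron of Cadps2. The Hey1 sites lie at chr3:8513844-8513903, in an intron of Stmn2, and chr3:8913923-8913982, in an intron of Mrps28. The Robo1 sites lie at chr16:72218188-72218247, outside any gene, and chr16:72605235-72605294, in an intron of Robo1. The trace amine receptor sites lie at chr10:23794338-23794397, outside any gene, and chr10:24131611-24131670, inside the long noncoding gene Gm40614 but in none of its exons. A core match shows only that these letters stand in the reference of another strain, and binding of CTCF was not measured.

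The scores that selected the domains are given as a description. The weaker border of a closed domain had a median score of 1.09 and a highest of 1.62, and the stronger border had a median of 1.38 and a highest of 3.57. Just inside the threshold were chr6:108062501-108412500 with Setmar and Sumf1 (lower score 1.00031), 2 adjacent domains on chromosome 1 that share a border scoring 1.00221, and the domain of the lysosomal membrane gene Lamp5 (1.00354). Just outside were chr17:29377501-29527500, which encloses the kinase gene Pim1 (lower score 0.998235), and chr6:56797501-56937500, which encloses Fkbp9 and Nt5c3 (0.995607). The closed domains had a median length of 292.5 kb (quartiles 225 and 368.75 kb), against 260 kb (190 and 370 kb) for the others, and covered 60710 kb in all. They used 374 distinct boundaries, since 22 pairs of closed domains share a border. Chromosome 1 held 24 of them (4.53% of its domains of the range), and chromosome 19 held 2 (1.16%).

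Closed domains were rich in starts of protein-coding genes, which are meant below wherever a start is not called long noncoding. They held 847 starts (4.6% of the 18396 in domains of the range), or 13.95 per Mb, against 9.24 per Mb in the other domains. With length and chromosome held constant in a Poisson fit over all domains of the range, the ratio was 1.60 (95% interval 1.36 to 1.88, adjusted p = 2.06e-05, n = 6640). The density was higher on 18 of 19 chromosomes. Against domains with exactly 1 such border, at 10.4 per Mb, the ratio was 1.40 (1.20 to 1.62, adjusted p = 0.00036, n = 2598). Against the 323 domains of the range next to a closed domain, at 10.3 per Mb, it was 1.41 (1.21 to 1.64, adjusted p = 0.000532, n = 521). Each adjusted p here and below is a two-sided, Benjamini-Hochberg value over 10 domain measures, with standard errors clustered by chromosome, and n counts the domains fitted. Ratios and odds ratios come from these fits, which hold length and chromosome constant except for the orientation of matches, and can differ from the quotient of the values printed beside them.

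Domains without a protein-coding start were rare among closed domains. In all, 4 of 198 closed domains (2.02%, 0.788 to 5.08%) held none, against 1648 of 6442 others (25.6%, 24.5 to 26.7%). Counting long noncoding genes as well, 2 of 198 closed domains (1.01%, 0.277 to 3.61%) held no start, against 791 of 6442 others (12.3%, 11.5 to 13.1%). For protein-coding starts alone the odds ratio was 0.0553 (0.0198 to 0.154, adjusted p = 2.14e-05, n = 6640), and the share was lower on all 19 chromosomes. Among domains with exactly 1 such border 16.1% lacked one, and among the neighbours of closed domains 18.0% did, and the odds ratio was 0.103 (adjusted p = 0.00033, n = 2598) against the first set and 0.0873 (adjusted p = 0.000532, n = 521) against the second. Adding GC content to the fit gave 0.0999 (adjusted p = 0.000321, n = 6640). A threshold of 1.2, which keeps 47 domains, gave 0.127 (adjusted p = 0.0128, n = 6640).

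All 4 closed domains without a start lay largely within the bodies of genes. Intervals with no start and under 50% gene body numbered 0 of 198 closed domains, whose Wilson interval reaches 1.90%, against 1228 of 6442 others (19.1%). On chromosome 11, chr11:74372501-74552500 is covered for 94.0% by Rap1gap2, a regulator of Rap GTPases, whose start lies 58.4 kb outside. On chromosome 7, chr7:92087501-92557500 is covered for 77.0% by Dlg2, which encodes a postsynaptic scaffold, and the start lies 1611 kb away. On chromosome 13, chr13:42827501-43167500 is covered for 91.5% by Phactr1, a regulator of actin and protein phosphatase. Tbc1d7, which covers 4.64% of that domain, has its start only 4.0 kb outside the border midpoint. On chromosome 16, chr16:72607501-72992500 is covered entirely by Robo1, the axon guidance receptor for Slit proteins.

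For Phactr1 and Robo1, the gene start lies in the adjoining closed domain. The Robo1 start domain, chr16:72212501-72607500, is the one whose convergent core matches are printed above. Its only protein-coding start is that of Robo1, 95.8 kb from the nearer border, and the border of score 1.03 that divides the pair of domains lies inside the gene.

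**Figure D1:**
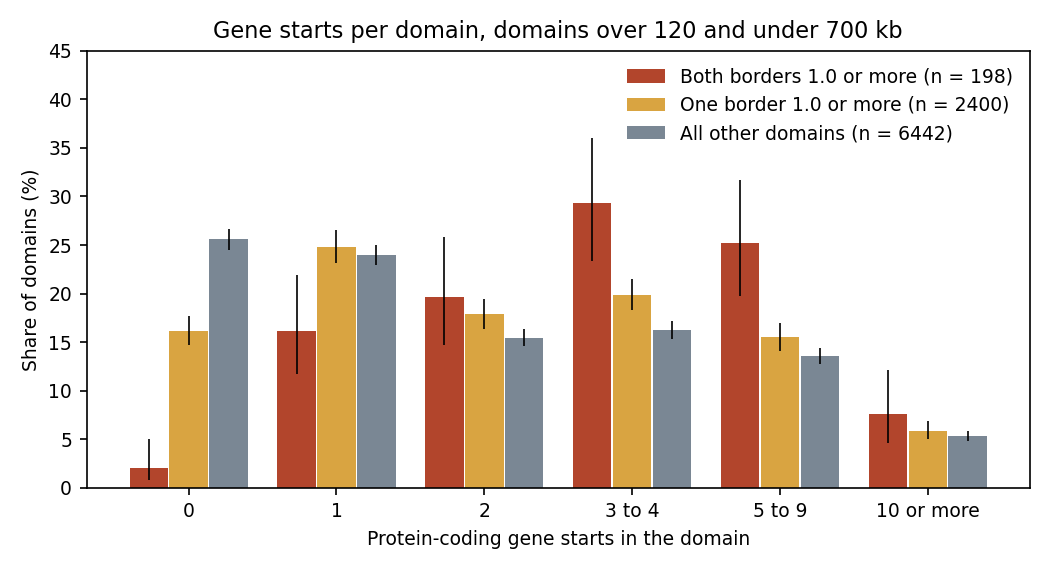
Share of domains (y axis, percent) by the number of protein-coding gene starts they hold (x axis), for 198 closed domains, 2400 domains with exactly 1 border at 1.0 or more and all 6442 other domains, which include those 2400; bars on the columns are Wilson 95% intervals. At 0 starts the closed domains stand at 2.02% against 25.6% for the others, and from 2 starts upward they stand above them, with overlapping intervals at 2 and at 10 or more.

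The number of starts per closed domain had a median of 3 (quartiles 2 and 6, highest 26), against 2 (0 and 4, highest 41) in the others. Means were 4.28 ± 3.90 and 2.72 ± 3.66 (SD over 198 and 6442 domains). At least 5 starts were found in 32.8% of closed domains (26.7 to 39.6%), against 18.9% of the others (17.9 to 19.8%). For at least 10 starts the shares were 7.58% (4.64 to 12.1%) and 5.31% (4.79 to 5.88%), and these intervals overlap. Genes enclosed over their whole length averaged 3.75 per closed domain, against 2.33 in the others, a ratio of 1.64 (1.36 to 1.97, adjusted p = 3.36e-05, n = 6640). With GC content added to the fit this ratio was 1.22 (1.02 to 1.46, adjusted p = 0.0334, n = 6640). Of the 847 genes that start in closed domains 743 were wholly enclosed (87.7%), against 85.5% of the genes in other domains.

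Domains with exactly 1 start were less common among closed domains, at 32 of 198 (16.2%), against 1541 of 6442 (23.9%), with an odds ratio of 0.601 (0.396 to 0.913, adjusted p = 0.0218, n = 6640). This difference missed the threshold at a score of 1.2 (odds ratio 0.359, adjusted p = 0.105, n = 6640) and over lengths of 180 to 500 kb (0.746, adjusted p = 0.231, n = 4574). In 17 of the 32 closed domains the single gene was wholly enclosed, and in 15 it reached over a border. These single genes had a median length of 113 kb, against 104 kb in the 1541 other domains.

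The excess of gene starts was present at every length, but not at every base composition. In domains of 120 to 250 kb the closed ones held 17.8 starts per Mb against 14.0 in the others, from 250 to 400 kb 15.1 against 9.46, and from 400 to 700 kb 9.18 against 4.81. GC content was higher in closed domains, with means of 45.0% against 42.9%. The difference fitted with length and chromosome was 2.34 percentage points (1.95 to 2.73, adjusted p = 2.34e-09, n = 6640), and the mean was higher on all 19 chromosomes. The fitted difference was 1.38 points against domains with exactly 1 such border and 0.914 points against the neighbours. With GC content in the fit, the ratio of gene starts was 1.22 (1.04 to 1.43, adjusted p = 0.0246, n = 6640). The domains of the range were split into 4 equal groups by GC content. In the lowest group, below 40.0%, 14 closed domains held 10.4 starts per Mb against 3.78 in 1646 others, and the middle groups stood at 11.2 against 7.21 and 13.1 against 10.0. In the highest group, above 45.5%, the order turned, with 16.5 starts per Mb in 84 closed domains against 19.5 in 1576 others. Domains without a start were still fewer there, at 1.19% against 8.44%. The part of base composition in the difference was not tested beyond these strata and the covariate.

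**Figure D2:**
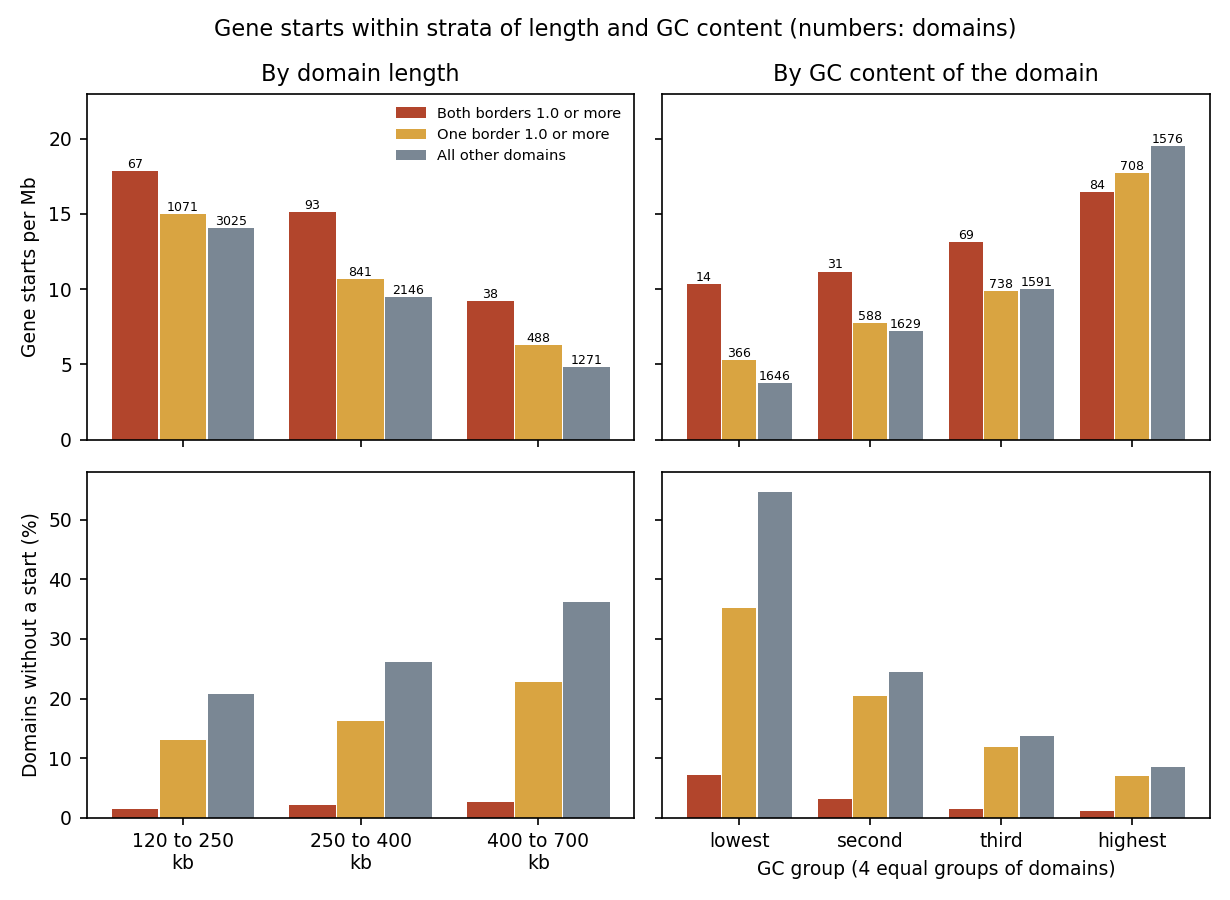
Protein-coding gene starts per Mb (upper panels) and the share of domains without a start (lower panels, percent) within 3 ranges of length and 4 groups of equal size by GC content, for closed domains, domains with exactly 1 border at 1.0 or more and all others; the small numbers count domains. The closed domains have the highest density in each length range and in the lower 3 GC groups, and the lowest share without a start in every stratum.

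**Figure D3:**
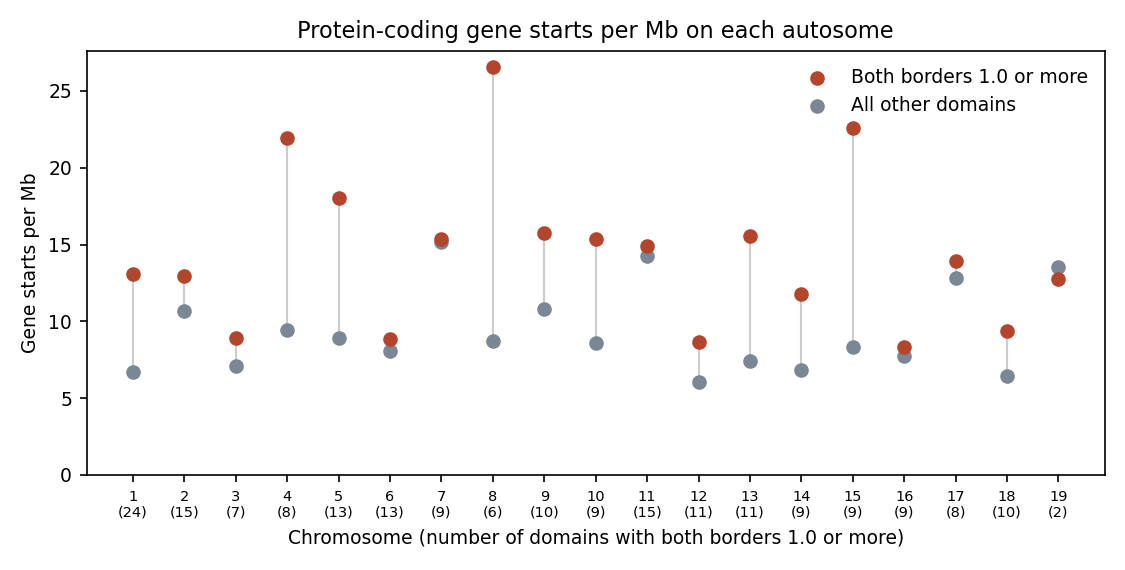
Protein-coding gene starts per Mb (y axis) on each of 19 autosomes (x axis, with the number of closed domains in brackets), for closed domains and all others. Closed domains stand higher on 18 chromosomes, by the widest margin on chromosome 8 (26.6 against 8.70 per Mb, 6 closed domains), and lower on chromosome 19 (12.8 against 13.5 per Mb, 2 closed domains). On chromosome 8, 1 of the 6 closed domains holds 25 starts.

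Other features of the enclosed sequence also differed. Protein-coding gene bodies covered 60.0% of a closed domain on average, against 47.3% of the others, and the difference fitted with length and chromosome was 14.0 percentage points (10.0 to 17.9, adjusted p = 2.28e-06, n = 6640). Long noncoding genes started at 7.45 per Mb against 5.56 per Mb, a ratio of 1.35 (1.20 to 1.52, adjusted p = 5.32e-05, n = 6640). GC content was not held constant in these fits of gene bodies and long noncoding starts. Sequence marked as repeat in the reference made up 27.6 ± 4.91% of closed domains and 31.8 ± 9.10% of the others (SD over domains), with no test. Genes of the olfactory, vomeronasal and trace amine receptor families made up 3.78% of genes starting in closed domains, against 6.73% elsewhere.

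Gene starts were also found close inside the borders. A protein-coding start lay within 10 kb of a border on the inside in 97 of 198 closed domains (49.0%), against 2102 of 6442 others (32.6%), with an odds ratio of 2.17 (1.66 to 2.83, adjusted p = 2.06e-05, n = 6640). At a score threshold of 1.2 the odds ratio was 1.64 (adjusted p = 0.0518, n = 6640). Among domains with exactly 1 border at 1.0 or more the share was 38.8%. Against these the odds ratio was 1.61 (adjusted p = 0.00166, n = 2598). Among boundaries scoring 1.0 or more, starts were near 46.5% of those that bound a closed domain and 44.7% of those that bound none. Starts within 10 kb inside a border did not make up the whole difference in density. Counting only starts farther than 10 kb from both boundary intervals, closed domains held 11.4 per Mb against 7.69, a ratio of 1.56 (adjusted p = 0.000128, n = 6640), and 4.55% against 32.1% were without one (odds ratio 0.0929, adjusted p = 1.12e-05). Genes that start within 10 kb inside a border were transcribed outward in 70 of 155 cases in closed domains (45.2%, 37.5 to 53.0%) and in 46.0% of 2946 cases elsewhere (44.2 to 47.8%).

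CTCF core matches were more frequent at the borders of closed domains, where the capitals printed above are examples. Both borders carried a match in 44 of 198 closed domains (22.2%, 17.0 to 28.5%), against 564 of 6442 others (8.76%, 8.09 to 9.47%). The odds ratio was 3.18 (2.33 to 4.32, adjusted p = 1.47e-06, n = 6640). It was 1.90 against the neighbours (adjusted p = 0.00393, n = 521), and 4.88 with the ambiguous positions of the consensus left free (adjusted p = 2.59e-06, n = 6640). The match was present near 26.7% of all autosomal boundaries and in 11.3% of 479213 windows of the same length. GC content, which was higher in closed domains, was held constant neither in the fits of matches nor in the choice of windows. Its part in the frequency of matches was not tested. At least 1 border carried it in 63.1% of closed domains and 44.6% of the others, so 73 of 198 closed domains had no exact match at either end. Among boundaries scoring 1.0 or more, 157 of the 374 that bound a closed domain had a match (42.0%, 37.1 to 47.0%), against 392 of the 1142 that bound none (34.3%, 31.6 to 37.1%). The median scores of these sets were 1.22 and 1.31. Gene starts were near 46.5% and 44.7% of them, and 47.1% and 40.5% lay within a gene body.

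The orientation of all matches together did not differ detectably. Matches pointed into the domain in 107 of 225 cases at closed domains (47.6%), against 50.2% of 4244 cases at others, with an odds ratio of 0.901 (0.642 to 1.26, adjusted p = 0.524, n = 4469 matches). A border belongs to the domains on both its sides, so that a match pointing into one points out of the other, which holds the comparison value near 50%. Orientation went with the side on which the match lay. On the domain's side of the border midpoint 81 of 110 matches pointed inward (73.6%, 64.7 to 81.0%), against 68.3% of 2130 at other domains (66.3 to 70.3%), an odds ratio of 1.30 (0.753 to 2.23, p = 0.329, n = 2240 matches). On the outer side 26 of 115 pointed inward (22.6%, 15.9 to 31.1%), against 31.9% of 2114 (29.9 to 33.9%), an odds ratio of 0.624 (0.407 to 0.958, p = 0.0328, n = 2229 matches). The split by side was chosen after the values had been seen, and these p-values are unadjusted. Matches pointing inward at both borders were present in 8.08% of closed domains and 2.67% of the others, and matches pointing outward at both in 8.59% and 3.06%.

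**Figure D4:**
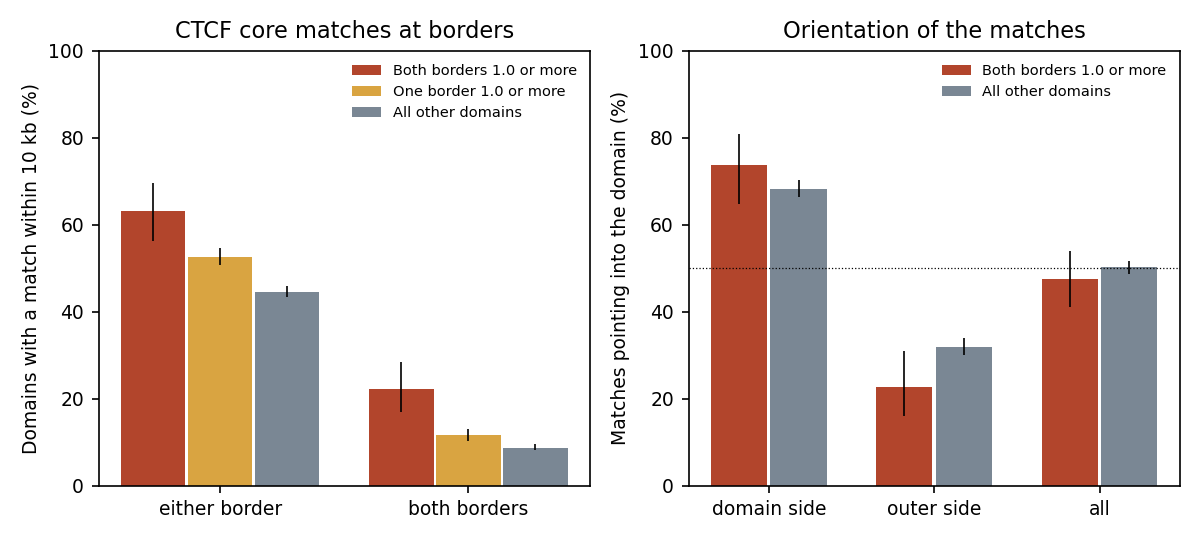
Left, share of domains (percent) with a CTCF core match within 10 kb of either border or of both; right, share of matches (percent) that point into the domain, by the side of the border on which they lie, with a dotted line at 50%. Bars on the columns are Wilson 95% intervals; closed domains have the highest shares on the left (22.2% at both borders), and on the right their matches point inward in 73.6% on the domain's side and 22.6% on the outer side.

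The 10 closed domains whose weaker border scored highest held between 0 and 26 gene starts. The highest was chr6:50292501-50602500, with scores of 1.62 and 1.63, which encloses the oxysterol-binding gene Osbpl3, the cytochrome c gene Cycs and 4921507P07Rik. Next came chr10:66837501-67317500 (2.06 and 1.59), with Reep3, the histone demethylase-related gene Jmjd1c and the autophagy gene Nrbf2. It was followed by the Rap1gap2 interval (2.31 and 1.56). Then came chr3:79627501-79847500 (1.55 and 1.52), which encloses 4930579G24Rik and the relaxin receptor gene Rxfp1. The others of the highest 10 included chr16:59402501-59682500 (2.21 and 1.45) with the GABA receptor gene Gabrr3, Riox2, Crybg3 and the ciliary gene Arl6. They also included chr1:86057501-86357500 (1.44 and 1.47) with the proteasome gene Psmd1, the serotonin receptor gene Htr2b, Gm21972 and Armc9, and chr5:90197501-90377500 (1.71 and 1.41) with Cox18, Ankrd17 and Gm9958.

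The domains of Neurog1, Fezf1 and Hey1 held 2, 1 and 1 protein-coding starts and 2, 1 and 3 long noncoding starts. Neurog1, which commits olfactory progenitors to the neuronal fate, lies in chr13:56182501-56372500 with the chemokine gene Cxcl14 as the only other protein-coding gene that starts there. The borders score 3.57 and 1.41, gene bodies cover 5.05% of the 190 kb, and the Neurog1 start is 69.7 kb from the left and 120.3 kb from the right border. The mice carry an Ngn1-GFP reporter, and its effect on contacts at this domain was not tested. No exact CTCF core match lay near either border. Fezf1, a zinc finger repressor needed for olfactory axons to reach the bulb, is the only protein-coding gene to start in chr6:23162501-23467500 (1.47 and 1.70), 85.9 kb from the left border. Gene bodies cover 68.2% of that domain, although Fezf1 itself spans 3.32 kb. Hey1, a repressor downstream of Notch, is the only protein-coding gene to start in the 405 kb of chr3:8512501-8917500 (1.24 and 1.35), 154.8 kb from the nearer border. It spans 3.90 kb, and gene bodies cover 41.6% of the domain.

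Hes5 and Notch1, which also belong to the Notch pathway, lay in closed domains with more starts. Among genes named Hes or Hey only Hes5 and Hey1 started in a closed domain, and among Notch, Dll and Jag genes only Notch1 did. The numbers of genes with these names, and the share of all Notch pathway genes in closed domains, were not counted. They cannot be set against the 4.6% of all protein-coding genes of the range that start in closed domains. Hes5, a Notch-induced repressor of neuronal differentiation, lies in chr4:154832501-155087500 (1.84 and 1.45) with 9 other starts, among them Ttc34, Mmel1 and Fam213b, and the domain has 2 core matches at each border. The receptor gene Notch1 lies in chr2:26442501-26652500 (1.15 and 1.23), with 6 starts in all, and its start is 74.2 kb from the left border.

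**Figure D5:**
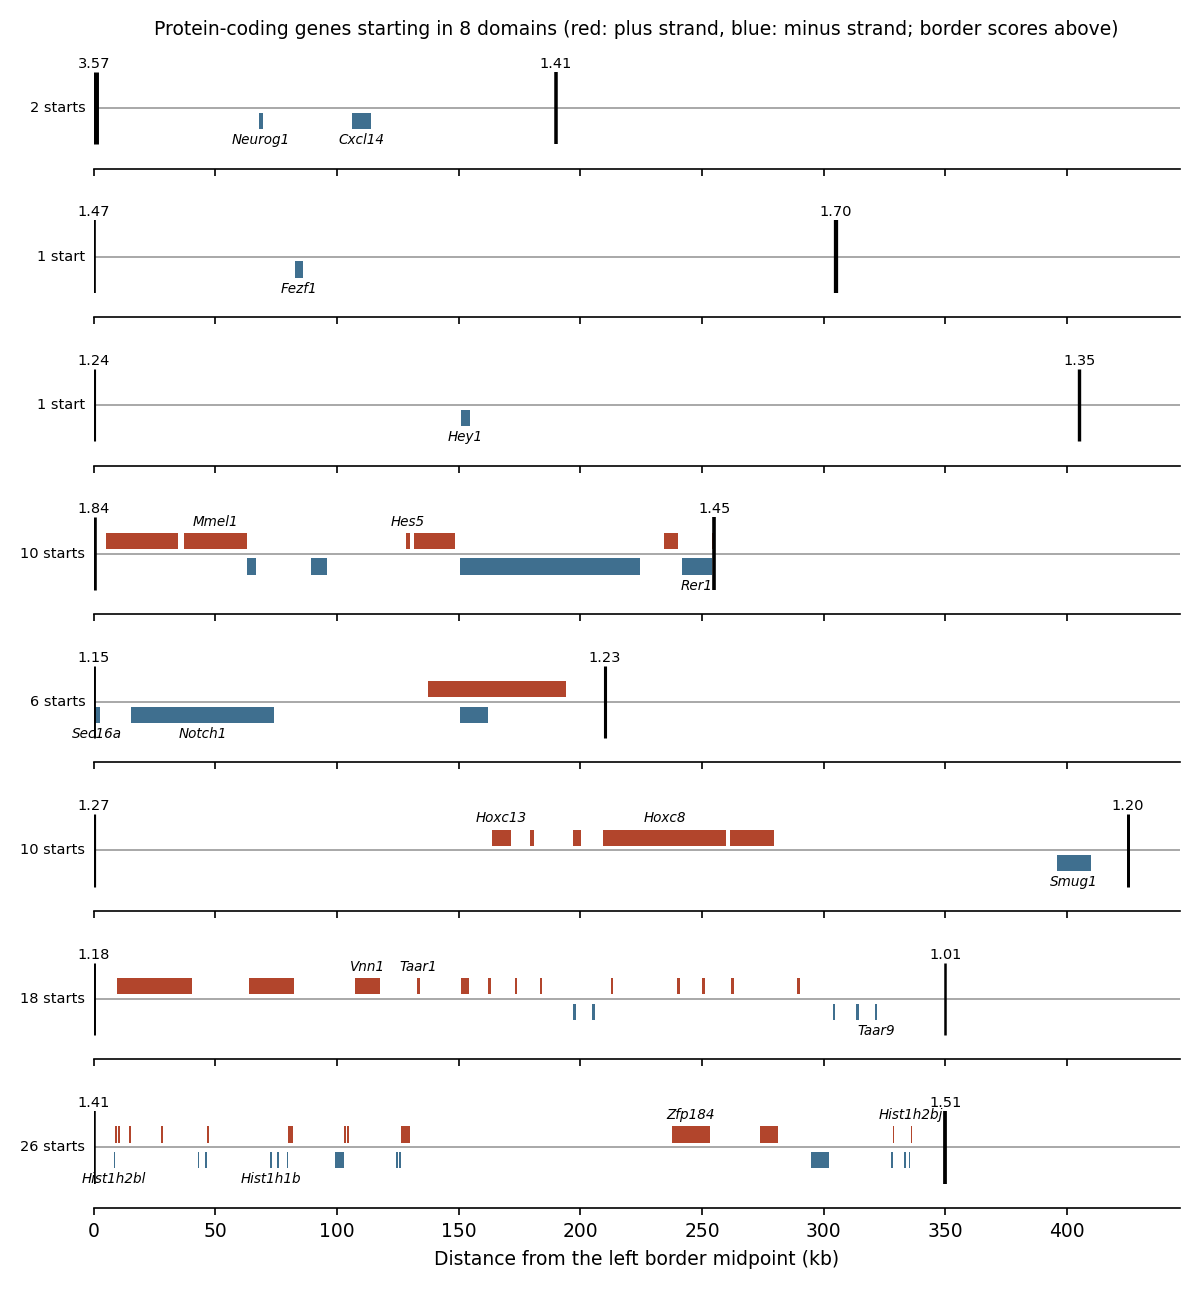
Protein-coding genes that start in 8 closed domains, by distance from the left border midpoint (x axis, kb), with plus strand genes above and minus strand genes below each line and border scores above the vertical bars. From top to bottom these are the domains of Neurog1, Fezf1, Hey1, Hes5, Notch1, the Hoxc cluster, the trace amine receptors and the histone genes, which hold 2, 1, 1, 10, 6, 10, 18 and 26 starts.

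Gene clusters were enclosed, whole or in part, in a few cases. All 15 trace amine receptor genes, most of which encode odorant receptors for amines, start in chr10:23787501-24137500 (1.18 and 1.01) together with Slc18b1, Vnn3 and Vnn1, and this is the domain whose sites are printed above. The closed domain with the most starts, 26 in 350 kb, is chr13:21707501-22057500 (1.41 and 1.51), which holds 23 of the 66 histone genes of the range, such as Hist1h2bl and Hist1h1b, and has no exact core match at either border. The Hoxc cluster of positional homeobox genes contributed 9 genes, Hoxc13 to Hoxc4, in chr15:102757501-103182500 (1.27 and 1.20) with Smug1. The other domains with the most starts were chr8:71367501-71752500 with 25, such as Ocel1, Nr2f6 and Ushbp1, chr5:137787501-138202500 with 20, such as Zcwpw1 and Pilra, and chr7:45707501-46042500 with 17, such as Sphk2 and Rpl18.

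By gene list, the counts are descriptions and carry no test. Of all 18396 protein-coding genes starting in domains of the range, 4.6% start in closed domains. For homeobox and developmental transcription factors it was 17 of 217 (7.83%). They lie in 9 of the 170 domains that hold genes of this list, and among all domains of the range 2.98% are closed. Of the 17 genes, 9 are Hoxc genes. The others were Hes5, Neurog1, Hey1, Bhlhe41, Klf14, Lhx6, Sox18 and Sox13. Of 23 regulators of olfactory precursors 2 were enclosed, Neurog1 and the replication helicase gene Mcm2, and of 12 immature neuron markers, 12 mature neuron markers and 13 markers of other cells of the tissue, 0 were. Axon guidance genes counted 8 of 66 (12.1%), with Ephb3, Sema4d, Robo3 and Robo4 in the domains of highest lower score. Signalling genes counted 6 of 73 (8.22%), such as Bmpr1b, Notch1, Tgfb3 and Fgf12, and cytosolic ribosomal proteins 6 of 71 (8.45%), such as Rplp1, Rpl4, Rpl3 and Rpl34.

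Other lists stood near or below the share of all genes. Proteasome genes counted 3 of 47 (6.38%), respiratory chain genes 3 of 87 (3.45%), channel genes 5 of 123 (4.07%), zinc finger genes named Zfp 11 of 314 (3.50%) and cytochromes P450 3 of 84 (3.57%). Olfactory receptor genes counted 16 of 999 (1.60%). Among all domains of the range 2.98% are closed, and the 16 genes lie in 2 of the 122 domains that hold any. One of these, chr1:173992501-174447500, held 13 of them and chr11:87592501-87962500 held 3. Vomeronasal receptors counted 1 of 199, Vmn2r90, and serpins and defensins 1 of 81, Serpinb6a. None of 57 clustered protocadherins, 25 other cadherins or 103 keratins started in a closed domain. Genes of a family lie next to each other, so that the clustered protocadherins amount to 4 domains and the keratins to 15.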

How the data were processed

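In situ Hi-C with the enzyme DpnII was performed on cells of 2 replicates fixed in 1% formaldehyde, per the labels. Boundaries were called on 1 matrix that combines the contacts of both, per the design text, and the build is GRCm38, per the submitters' processing notes. Caller, window and cutoffs were not given in these sources. The deposited list gives each 5 kb boundary a class and a score, both the authors', and the score was used only to describe and select boundaries. From the values, the authors' strong class begins at a score of 0.5. Insulation tracks, compartment tracks and contact matrices were not analysed here.

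Genes came from GENCODE M21 and sequence from GRCm38.p6, the same build as the list but another strain. A gene's start is where its model begins on the 5′ side. Gene number was fitted by Poisson, shares by logistic and percentages by linear regression on membership, log length and chromosome (orientation on membership alone). All fits had standard errors clustered by chromosome and ran in Python 3.11.15 with statsmodels 0.14.6. The scripts were tested on simulated data. Neighbouring domains share borders, and Wilson intervals take domains as independent and cover counting error only. Alternatives changed the score threshold, length range, comparison set, receptor genes, unassembled sequence, GC term, window and motif, and left out each chromosome.

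The domains, measures and 21 gene lists were chosen with earlier results of these data known. The rule for named genes took the 10 domains with the highest lower score, the 5 with the most starts, those with none, those holding a precursor or neuron marker, up to 4 genes of each other list, and the 5 nearest the threshold on each side. Up to 4 enclosed genes were named per domain, and not every domain near the threshold is reported here. Genes named outside it, in the Hey1, Notch1 and Hoxc domains and in runs of adjoining domains, were chosen after their values were seen.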

Additional observations from a re-analysis of the deposited data

How the results depend on the processing

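Of the 10 measures, 7 kept their direction and their side of the threshold under every alternative run for them, and all 10 did with each of 19 chromosomes left out in turn. Over those omissions the ratio of gene starts ranged from 1.56 to 1.66, the odds ratio of having no start from 0.0426 to 0.0641 and that of a core match at both borders from 2.83 to 3.32. The share with exactly 1 start missed the threshold at a score of 1.2 (odds ratio 0.359) and over 180 to 500 kb (0.746), and a start near a border missed it at 1.2 (1.64). A threshold of 1.2 leaves 47 closed domains, and 0.8 gives 612. A GC term was added only to the fits of gene starts, domains without a start and wholly enclosed genes. The other measures were not adjusted for GC content. Orientation turned for matches on the domain's side (1.30) and passed 0.05, unadjusted, on the outer side (0.624), an alternative added after seeing the data, and the cause was not tested. The comparisons with neighbouring domains and with starts far from borders were also added after seeing the data. No paired analysis was possible because both replicates were combined before boundaries were called. For the same reason the spread between replicates and the effect of depth on the scores, and so on which domains pass the threshold, are unknown.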

Other observations

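Closed domains sometimes followed each other along a chromosome. There were 158 that stood alone, 14 runs of 2 and 4 runs of 3. The neighbour of a closed domain already has 1 border at 1.0 or more, so that some runs follow from the rule. Of the 7410 boundaries on the 19 autosomes, 1516 scored 1.0 or more. Whether runs were more or less frequent than this share would give was not tested. One run of 3 covers 780 kb of chromosome 12 from 85337501 and separates genes of the AP-1 transcription factor family, with Tmed10 and Fos in the first domain and Jdp2, Batf and Flvcr2 in the second, while the growth factor gene Tgfb3 lies in the third. Another covers 690 kb of chromosome 2 from 131812501, with the prion gene Prnp and its relative Prnd in the first domain, Rassf2 and Slc23a2 in the second and the replication clamp gene Pcna in the third. The other 2 runs lie on chromosome 1, over 1345 kb from 88292501, with 5 protein-coding gene starts such as that of Arl4c, and over 810 kb from 154747501, with 6 starts such as those of the channel gene Cacna1e and of Xpr1.

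The Hoxc domain and its right neighbour on chromosome 15, which encloses the heterochromatin protein gene Cbx5 and Hnrnpa1, form a run of 2 over 605 kb with 16 protein-coding starts. The apolipoprotein L genes on the same chromosome are divided by a border of score 1.22, with Apol7a among the 11 starts on its left and Apol8 among the 6 on its right. These runs were picked out after their values were seen and carry no test.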
